A study of Mus musculus with 6 samples.

Results

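The 10 genes described here encode the mRNA decapping enzyme, its activators and the 5' to 3' exoribonucleases: Dcp2, Dcp1a, Dcp1b, Edc3, Edc4, Ddx6, Patl1, Lsm1, Xrn1 and Xrn2. Members were all probe sets that the platform annotation gives to exactly 1 of these symbols, which are 23 of the 45101 probe sets on the array; 18193 genes are named in this way in all. Of these, 18 lay above the filter on dim signals and were tested, at least 1 for every gene. The other 5 (2 of Dcp1b and 1 each of Ddx6, Patl1 and Lsm1) were too dim and are given as signals only. RNA came from elongating spermatids, the germ cells that condense their nucleus after meiosis, sorted for GFP from testes of wildtype ICR mice. ICR is an outbred strain, and its testes received lentiviral vectors with GFP when the males were 5 weeks old, 1 week before sorting. The vectors carried a hairpin against Miwi (shMiwi; the PIWI protein Piwil1), a hairpin against Caf1 (shCaf1; taken here as the deadenylase Cnot7) or no hairpin (pSilencer control). Each group held 2 Affymetrix arrays labelled as biological replicates. The labels do not say how many animals each array stands for, so p-values measure only the spread between these arrays, and their number limits the precision.

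Most cytoplasmic mRNAs are degraded after their poly(A) tail has been shortened, the step that CCR4-NOT with its Caf1 subunit carries out. The Lsm1 ring and Patl1 then bind the shortened 3' end and, with the RNA helicase Ddx6, recruit Dcp2, which cuts off the cap. Dcp1 and the Edc proteins stimulate Dcp2, and Xrn1 degrades the uncapped RNA from its 5' end. In spermatids many mRNAs are stored untranslated in germ granules before use, and Ddx6 is also known as a component of such granules.

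Neither control array resembled the 4 shRNA arrays, nor did the controls resemble each other. Pearson's r over the 27022 tested probe sets was between 0.968 and 0.983 among the shRNA arrays. It was between 0.037 and 0.071 for control 1 against the shRNA arrays, between 0.396 and 0.462 for control 2 against them, and 0.451 between the controls. All arrays had been scaled to the same trimmed mean of 500. On that scale the hybridization controls, RNAs spiked in at a fixed amount, were 82.3 times (control 1) and 16.2 times (control 2) as bright as their mean in the shRNA groups. Members shared this spread: their median difference between replicates on the log2 scale was 0.181 in shMiwi, 0.169 in shCaf1 and 1.61 in control, against 0.218, 0.185 and 1.28 over all tested probe sets. Markers of elongating spermatids (10 of 10 listed on the array) had a median rank within the array at the 99.1st and 99.0th percentiles in shMiwi and at 99.7 in both shCaf1 arrays. Their median was at 32.7 on control 1 and 99.5 on control 2. On control 1 these markers ran from percentiles 1.5 (Tnp2) and 9.4 (Tnp1) up to 86.9 (Gapdhs) and 96.1 (Prm1). Markers of some other cells were also bright on the sorted shRNA arrays. Median percentiles lay between 98.8 and 99.0 for round spermatids and between 98.7 and 99.1 for pachytene spermatocytes, close to those of elongating spermatids. For Leydig cells they lay between 95.5 and 96.5 (4 of 5 listed on the array). They were lower for Sertoli cells (79.6 to 82.3), macrophages (76.1 to 81.8), peritubular myoid cells (66.5 to 75.5) and endothelial cells (46.3 to 55.1). Each target gene is given by its probe set with the highest mean over all arrays, controls included. The Piwil1 probe set read 9780 and 10392 in shMiwi, 21881 and 22442 in shCaf1, and 1445360 and 292542 in control. That of Cnot7 read 4365 and 5012 in shMiwi, 3633 and 4330 in shCaf1, and 2003570 and 188877 in control. On the deposited scale both lay below control in both shRNA groups, so neither difference from control was confined to the hairpin named for the gene. In shMiwi and shCaf1 these log2 differences were -6.01 and -4.87 for Piwil1, and -7.03 and -7.27 for Cnot7. Between shMiwi and shCaf1 the Piwil1 difference of -1.14 (SE 0.09) passed limma on the 4 shRNA arrays (adjusted p = 0.00105), and that of Cnot7, 0.24 (SE 0.13), did not (adjusted p = 0.307).

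In shMiwi against shCaf1, no member probe set passed the test. The limma fit on the 4 shRNA arrays called 0 of 18 at a Benjamini-Hochberg adjusted p under 0.05, where 7.33% of all tested probe sets were called (3.81% higher and 3.52% lower in shMiwi). At an unadjusted p under 0.05 there were 3 of 18, which are probe sets of Ddx6, Xrn2 and Dcp1a, where 24.4% of all tested probe sets passed. The members' log2 differences ran from -0.80 to 0.42 with a median of 0.06, beside a median of 0.02 over all tested probe sets. Both shMiwi arrays read above both shCaf1 arrays for 8 of the 18 (28.8% of all tested) and below them for 2 (25.3%). In bulk RNA of this kind, fewer cells of a type and less RNA per cell cannot be told apart. Elongating spermatid markers ranked slightly lower and peritubular myoid markers higher in shMiwi than in shCaf1 (myoid median percentiles 74.3 and 75.5, against 66.5 and 67.5). The part of either in the members' values was not tested.

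**Figure D1:**
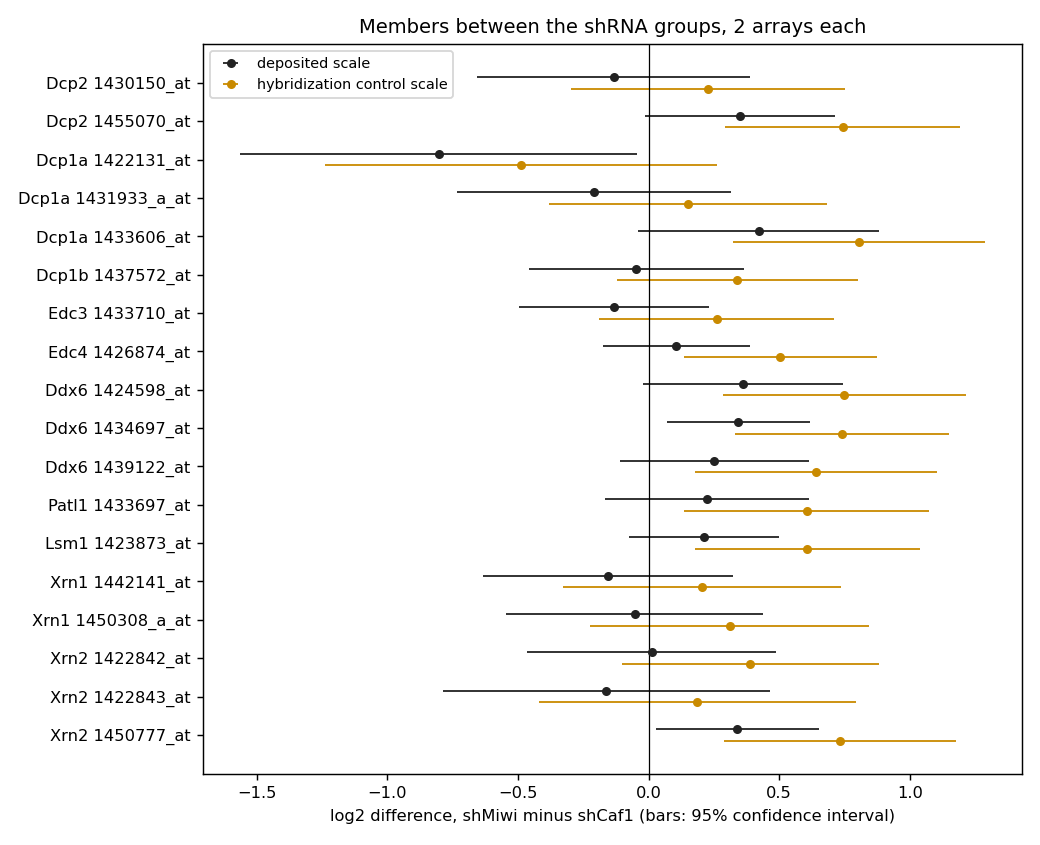
Log2 difference, shMiwi minus shCaf1, of the 18 tested member probe sets (rows) with 95% confidence intervals from limma on the 4 shRNA arrays, on the deposited scale (black) and on the scale of the hybridization controls (ochre). On the deposited scale the points lie between -0.80 and 0.42, and on the other scale each lies further to the right.

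Against control, the limma fit on all 6 arrays called 5 of the 18 in shMiwi, 3 higher and 2 lower, where 43.2% of all tested probe sets were called (16.9% higher and 26.4% lower). In shCaf1 it called 4 of the 18, 2 higher and 2 lower, where the background was 41.5% (15.5% higher and 26% lower). The called genes were Ddx6, Dcp1a, Patl1 and, in shMiwi, Dcp2. When an array was left out, the members' counts moved with those of all tested probe sets. Such a fit leaves 1 array in a group, which then adds nothing to the estimate of spread. Without a control array, the spread came from the shRNA arrays alone, so those calls take no account of the spread between controls. In shMiwi 0 members were called without either shMiwi array (0% of all tested), 2 without either shCaf1 array (24.7% and 24.6%), 14 without control 1 (79.7%) and 13 without control 2 (84%). In shCaf1 it was 0 without either shCaf1 array (0%), 1 without either shMiwi array (21.8%), 13 without control 1 (78.5%) and 15 without control 2 (83.9%). Median centring gave 8 higher and 1 lower in shMiwi, and 8 higher and 0 lower in shCaf1. Over all tested probe sets it called 46.9% and 44% in either direction, and their median moved to 1.38 and 1.32. The comparisons share their control arrays, so each is given by its own values. The members' median log2 difference was 0.65 in shMiwi and 0.57 in shCaf1, against -0.20 and -0.25 over all tested probe sets. The median over all tested probe sets depended on the filter and the scaling. In shMiwi it was 0.56 with a filter at the 60th percentile, 0.48 with quantile normalization and -1.2 without a filter. For 5 of the 18 in shMiwi and 6 in shCaf1 the sign against control 1 was opposite to that against control 2, as it was for 25.5% and 25.6% of all tested probe sets. By rank within the array, which no scaling changes, 9 of 18 members were above both control arrays in both shMiwi arrays (37.9% of all tested) and 3 below (28.6%). In shCaf1 these numbers were 8 (38%) and 3 (28.4%).

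**Figure D2:**
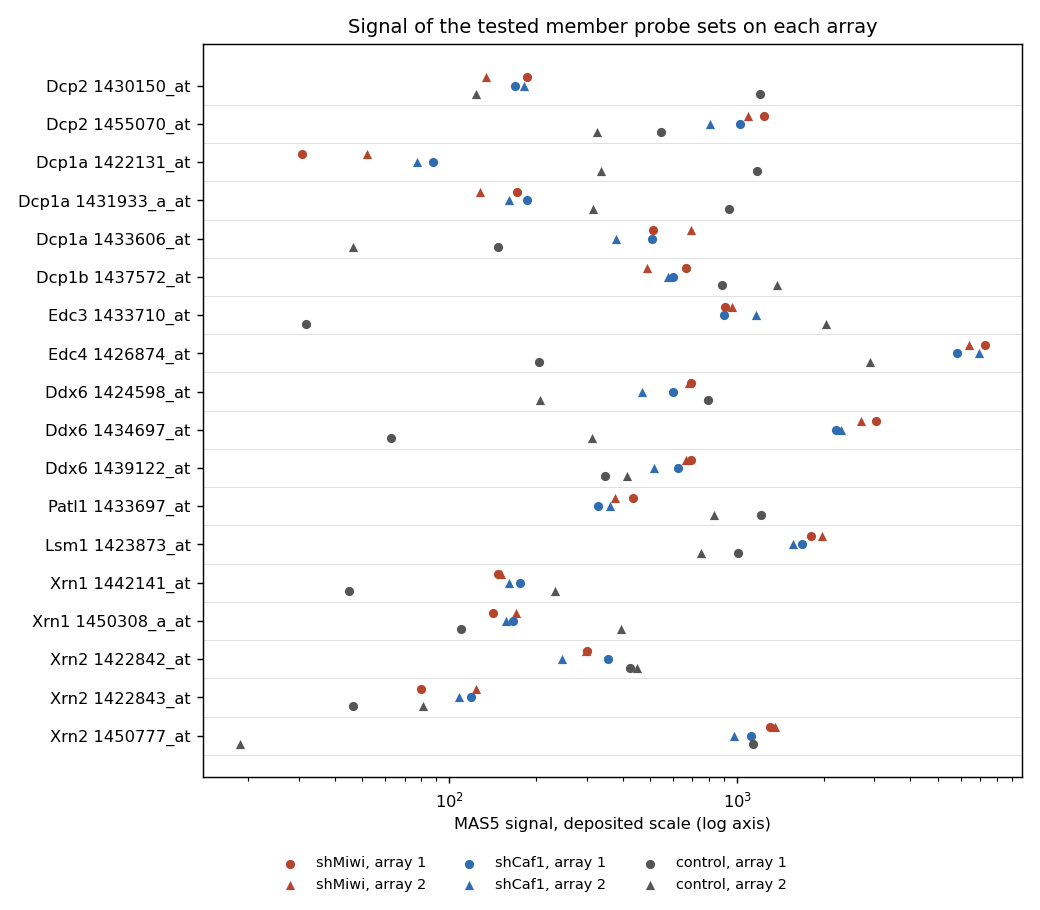
Deposited MAS5 signal (log axis) of the 18 tested member probe sets on each array, with shMiwi in red, shCaf1 in blue and control in grey, circles for array 1 and triangles for array 2. The shRNA arrays lie close together in most rows, while the control arrays lie far apart in many, for Edc3 at 31.9 and 2033.

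The catalytic subunit Dcp2, the hydrolase that removes the cap, had 2 probe sets. The brighter one, 1455070_at, read 1240 and 1093 in shMiwi, 1025 and 806 in shCaf1, and 542 and 327 in control. Both shRNA groups lay above both control arrays. Dcp2 rose in shMiwi against control by 1.43 on the log2 scale (SE 0.40, adjusted p = 0.0378), and in shCaf1 the difference was 1.08 (SE 0.40, adjusted p = 0.0844). The call in shMiwi was lost without any 1 of the 4 shRNA arrays (adjusted p between 0.115 and 0.212) and with the 4 arrays of shMiwi and control alone (0.115). In shCaf1 the difference passed with quantile normalization (1.79, adjusted p = 0.0229) and with median centring (2.65, 0.00426). It was 1.43 without control 1 and 0.73 without control 2. Between shMiwi and shCaf1 it differed by 0.35 (95% interval -0.01 to 0.71, adjusted p = 0.22). The other probe set, 1430150_at, read 187 and 135 in shMiwi, 169 and 182 in shCaf1, and 1205 and 124 in control. Its control arrays bracketed all 4 shRNA arrays, and the differences of -1.24 in shMiwi and -1.11 in shCaf1 did not pass (adjusted p = 0.37 and 0.421) and turned to 0.34 and 0.46 with median centring.

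Dcp1a, the cofactor that binds Dcp2 and stimulates cap removal, had 3 tested probe sets, of which 1 was called higher and 1 lower than control on the deposited scale. For 1433606_at the signal was 512 and 689 in shMiwi, 508 and 381 in shCaf1, and 147 and 46.2 in control. This probe set of Dcp1a rose by 2.60 in shMiwi (SE 0.56, adjusted p = 0.0176) and by 2.18 in shCaf1 (SE 0.56, adjusted p = 0.0304). For 1422131_at the signal was 30.9 and 51.9 in shMiwi, 87.7 and 77.3 in shCaf1, and 1168 and 337 in control. This one fell by 3.52 in shMiwi (SE 0.66, adjusted p = 0.0122) and was also called lower in shCaf1, at -2.72 (SE 0.66, adjusted p = 0.026), with a turn to 0.91 and 1.40 on the scale of the hybridization controls. The call of 1422131_at was lost with quantile normalization in shMiwi and shCaf1 (adjusted p = 0.0582 and 0.13) and with median centring in shCaf1 (0.137). With the 4 arrays of each comparison alone, 1433606_at was lost in both (adjusted p = 0.0578 and 0.0866) and 1422131_at in shCaf1 (0.0683). The third, 1431933_a_at, read 172 and 128 in shMiwi, 186 and 162 in shCaf1, and 934 and 315 in control. Its differences of -1.77 and -1.56 did not pass (adjusted p = 0.0581 and 0.0835). The called-lower probe set 1422131_at ranked low on the shRNA arrays. Its percentiles were 31 and 44 in shMiwi and 52 and 51 in shCaf1, against 88 and 63 in control. The filter used the mean over all arrays, which included the brighter control signals. With a stricter filter 1422131_at was not tested. On the deposited scale the probe sets of Dcp1a thus gave no single direction, and the lower calls rested on 1422131_at alone. In shMiwi against shCaf1 the probe sets also split, without a call: 1433606_at was higher in both shMiwi arrays (0.42, 95% interval -0.04 to 0.88, adjusted p = 0.249) and 1422131_at lower in both (-0.80, interval -1.56 to -0.04, adjusted p = 0.181). Without shMiwi replicate 1, Dcp1a 1433606_at was called, at 0.63 (adjusted p = 0.036).

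Dcp1b, the paralog of Dcp1a, was measured above the filter by 1437572_at. It read 665 and 486 in shMiwi, 601 and 575 in shCaf1, and 883 and 1371 in control. The shRNA arrays lay below both control arrays, with differences of -0.93 in shMiwi and -0.89 in shCaf1 (SE 0.39 each) that did not pass (adjusted p = 0.112 and 0.129) and turned to 0.65 and 0.68 with median centring. The shRNA groups overlapped, with a difference of -0.05 (interval -0.46 to 0.36). The other Dcp1b probe sets were dim on the shRNA arrays: 1458614_at read between 6.54 and 20.5 there, and 1444030_at between 4.93 and 45.5. On control 1 the signal of 1444030_at was 620, and on control 2 it was 16.3.

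Of the enhancers of decapping, Edc4, the scaffold that holds Dcp1 and Dcp2 together, read 7271 and 6406 in shMiwi, 5803 and 6920 in shCaf1, and 206 and 2886 in control. Its shRNA arrays all lay above both controls and ranked between the 97.2nd and 98.3rd percentiles, against 42.6 on control 1 and 95.1 on control 2. The differences from control were 3.09 in shMiwi and 2.98 in shCaf1 (SE 1.20 each, adjusted p = 0.0918 and 0.103). They were 1.24 and 1.13 without control 1, and 4.95 and 4.84 without control 2. With median centring they were called, at 4.67 and 4.55 (adjusted p = 0.0421 and 0.0473). Edc3, an activator that binds Dcp2 and Ddx6, read 908 and 962 in shMiwi, 902 and 1166 in shCaf1, and 31.9 and 2033 in control. Its control arrays lay on either side of the shRNA arrays, so the difference in shMiwi was 4.31 against control 1 and -1.11 against control 2. Between the shRNA groups the 95% interval was -0.18 to 0.39 for Edc4 and -0.49 to 0.23 for Edc3.

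Ddx6, the DEAD-box helicase that links translational repression to decapping, had 3 tested probe sets. Each was higher in both shMiwi arrays than in both shCaf1 arrays, as were 28.8% of all tested probe sets. The brightest, 1434697_at, read 3030 and 2699 in shMiwi, 2212 and 2288 in shCaf1, and 62.7 and 314 in control. Its shMiwi minus shCaf1 difference was 0.34 (95% interval 0.07 to 0.62, adjusted p = 0.12). For 1424598_at the signal was 692 and 678 in shMiwi against 600 and 467 in shCaf1, a difference of 0.36 (interval -0.02 to 0.74, adjusted p = 0.231). For 1439122_at it was 690 and 665 in shMiwi against 625 and 513 in shCaf1, a difference of 0.25 (interval -0.11 to 0.62, adjusted p = 0.377). The probe sets share the gene and the RNA, so they are no independent repeats.

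Against control, Ddx6 1434697_at rose by 4.16 in shMiwi (SE 0.72, adjusted p = 0.0098) and by 3.81 in shCaf1 (SE 0.72, adjusted p = 0.0131). Its rank was between the 91.9th and 94.1st percentiles on the shRNA arrays, against 17.6 on control 1 and 61.1 on control 2. The other Ddx6 probe sets gave smaller differences. For 1439122_at, with 347 and 415 in control, they were 0.81 in shMiwi and 0.56 in shCaf1 (adjusted p = 0.105 and 0.231). For 1424598_at, with 791 and 206 in control, they were 0.73 and 0.37 (adjusted p = 0.413 and 0.681), and the control arrays bracketed the shRNA arrays. In shMiwi both passed with median centring, at 2.39 for 1439122_at (adjusted p = 0.00738) and 2.31 for 1424598_at (adjusted p = 0.022). With quantile normalization neither did (adjusted p = 0.086 and 0.261). The dim probe set 1447789_x_at read between 11.6 and 30.2 on the shRNA arrays, and 77.8 and 20.2 in control. The limma calls of Ddx6 1434697_at were lost when either array of the shRNA group compared was left out.

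**Figure D3:**
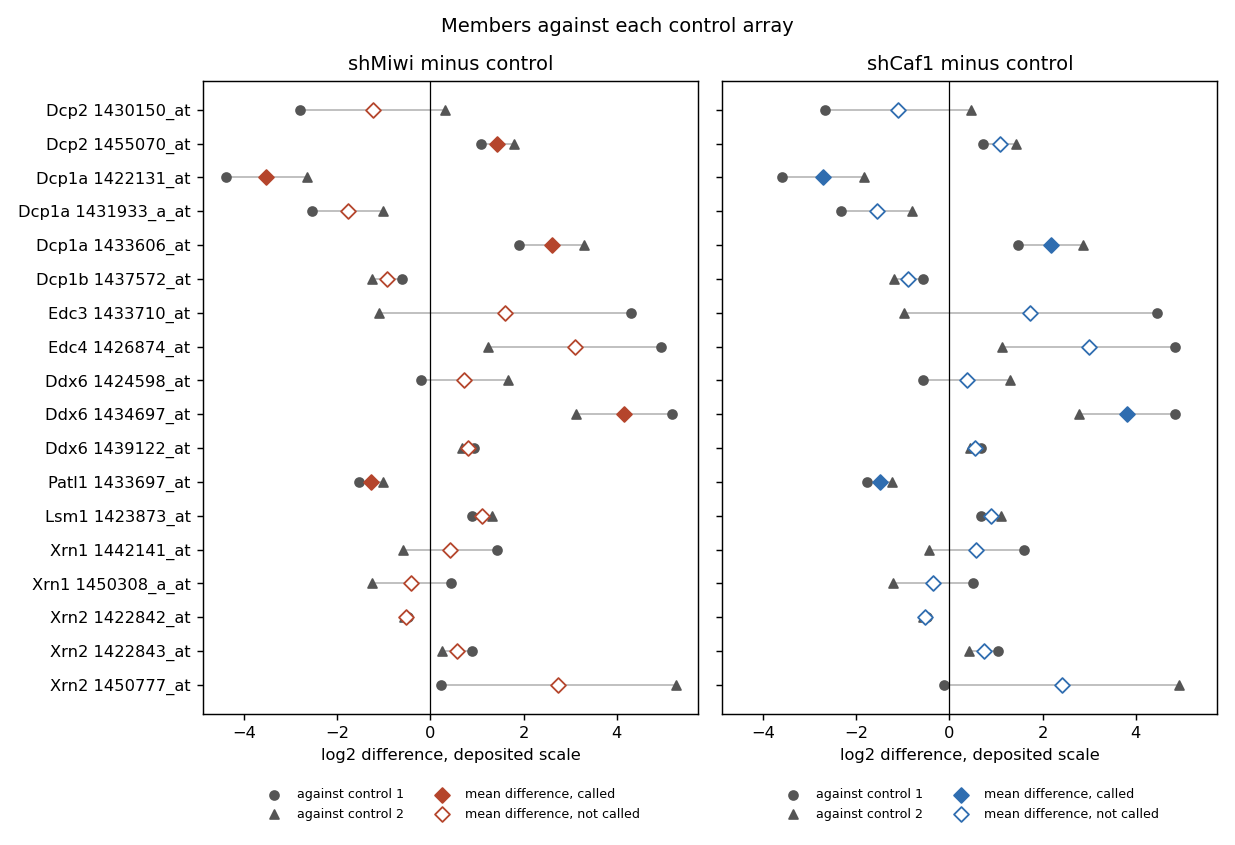
Log2 difference from control on the deposited scale of the 18 tested member probe sets, for shMiwi (left) and shCaf1 (right). Grey circles are against control 1, grey triangles against control 2, and diamonds are the mean difference, filled where limma called it; for Edc3 the circle and the triangle lie on opposite sides of 0.

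Patl1, the protein that bridges the Lsm1 ring and the decapping enzyme, read 436 and 378 in shMiwi, 330 and 362 in shCaf1, and 1213 and 832 in control with 1433697_at. All shRNA arrays lay below both controls, and shMiwi above shCaf1. Patl1 fell by 1.28 in shMiwi (SE 0.36, adjusted p = 0.0383) and was also called lower in shCaf1, at -1.50 (SE 0.36, adjusted p = 0.0249) against control on the deposited scale. Its rank was between 71.2 and 74.0 on the shRNA arrays, against 89.2 and 84.9 in control. The direction turned to 3.41 in shMiwi and 2.80 in shCaf1 on the scale of the hybridization controls. It also turned, to 0.31 and 0.07 with no call, when arrays were centred on their medians, and the calls were lost with the 4 arrays of each comparison alone (adjusted p = 0.133 and 0.0898). Median centring moved the median of all tested probe sets from -0.20 to 1.38 and from -0.25 to 1.32. The dim probe set 1445139_at read 8.40 and 9.09 in shMiwi, 6.58 and 11.2 in shCaf1, and 113 and 38.9 in control. The shMiwi minus shCaf1 difference of 1433697_at was 0.22 (interval -0.17 to 0.61).

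RefSeq promoter windows on GRCm38.p6 were at hand for 7 of the 10 genes, and not for Dcp2, Ddx6 and Lsm1. Of these 7 genes, Dcp1a and Patl1 were the ones called against control in the main fits. Their windows are shown as the 250 bases before the annotated start, on the plus strand. Ddx6 and Dcp2, which were also called, had no window. The Dcp1a window is chr14:30479315-30479564 and the Patl1 window chr19:11912149-11912398. Both strands were searched for the CRE octamer TGACGTCA, bound by the spermatid activator CREM, its half-site TGACG, which lies within the octamer, and the CCAAT box. Capitals mark matches, 1 CCAAT box starting 224 bases and 1 half-site 216 bases before the start of Patl1.
Dcp1a: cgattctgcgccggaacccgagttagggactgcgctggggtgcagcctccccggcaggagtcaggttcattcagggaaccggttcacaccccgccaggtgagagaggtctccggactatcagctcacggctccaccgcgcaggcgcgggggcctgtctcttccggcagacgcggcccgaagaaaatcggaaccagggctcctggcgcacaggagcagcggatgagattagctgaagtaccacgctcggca
Patl1: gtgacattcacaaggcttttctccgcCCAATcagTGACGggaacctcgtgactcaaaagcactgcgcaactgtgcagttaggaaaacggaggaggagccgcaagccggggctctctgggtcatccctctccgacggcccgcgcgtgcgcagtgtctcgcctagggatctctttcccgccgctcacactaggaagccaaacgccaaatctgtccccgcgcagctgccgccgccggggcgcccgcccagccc
Of the 7 genes, 0 held the octamer, 1 the half-site and 2 (Patl1 and Edc4) a CCAAT box. Over the 32851 windows in the table the shares were 1.55%, 17.8% and 33.8%. A match is a run of letters and was not tested as a binding site.

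Lsm1, the subunit that marks the cytoplasmic LSM ring, read 1799 and 1974 in shMiwi, 1683 and 1566 in shCaf1, and 1010 and 747 in control with 1423873_at. The arrays were ordered without overlap, shMiwi above shCaf1 and shCaf1 above control. None of the steps passed in the main fits. They were 1.10 for shMiwi against control (SE 0.36, adjusted p = 0.0566) and 0.89 for shCaf1 against control (adjusted p = 0.102). For shMiwi against shCaf1 the step was 0.21 (interval -0.07 to 0.50, adjusted p = 0.345), and 0.61 on the hybridization control scale (adjusted p = 0.0296). The step of shMiwi against control passed with a constant of 64 (1.06, adjusted p = 0.0477) and with median centring (2.68, adjusted p = 0.00421). With quantile normalization it did not (0.82, adjusted p = 0.147). Without control 1 it was 1.32, and without control 2 it was 0.89. Its dim probe set, 1441452_at, read between 15.4 and 60.5 on the shRNA arrays, and 38.5 and 11.1 in control.

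Of the exoribonucleases, Xrn1 acts on decapped mRNA in the cytoplasm. Its probe set 1442141_at read 148 and 151 in shMiwi, 176 and 161 in shCaf1, and 45.1 and 234 in control. The other, 1450308_a_at, read 142 and 170 in shMiwi, 166 and 158 in shCaf1, and 110 and 395 in control. For both, the control arrays lay on either side of the shRNA arrays, and no Xrn1 difference passed (adjusted p between 0.544 and 0.914 over both probe sets and all 3 comparisons). Against control, 1450308_a_at was at -0.41 in shMiwi and -0.36 in shCaf1, at 1.17 and 1.21 with median centring, and at 0.66 and 0.73 with quantile normalization. For shMiwi minus shCaf1 the 95% intervals were -0.64 to 0.32 and -0.55 to 0.44.

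Xrn2, the nuclear relative that degrades, among others, the downstream fragment of cleaved transcripts, had 3 tested probe sets and no call in the main fits. For 1450777_at the signal was 1297 and 1355 in shMiwi, 1117 and 975 in shCaf1, and 1133 and 18.9 in control. The shMiwi arrays lay above the shCaf1 arrays by 0.34 (interval 0.03 to 0.65, adjusted p = 0.167), and the control arrays lay on either side of the shCaf1 arrays. Its differences from control were 2.75 in shMiwi and 2.40 in shCaf1 (adjusted p = 0.217 and 0.273). In shMiwi the difference was 5.27 without control 1 and 0.22 without control 2. For 1422842_at the signal was 301 and 299 in shMiwi, 357 and 247 in shCaf1, and 425 and 450 in control. Both shRNA groups were below control, with differences of -0.52 and -0.53 (adjusted p = 0.274 and 0.266). These turned to 1.06 and 1.03 with median centring and to 0.36 and 0.41 with quantile normalization. For 1422843_at, the dimmest of these, the signal was 79.9 and 124 in shMiwi, 119 and 108 in shCaf1, and 46.5 and 81.1 in control. Its differences from control were 0.57 in shMiwi and 0.73 in shCaf1 (adjusted p = 0.361 and 0.254). In shMiwi it was called higher with quantile normalization (1.89, adjusted p = 0.0412) and with median centring (2.15, adjusted p = 0.0263). The intervals of shMiwi minus shCaf1 were -0.46 to 0.49 for 1422842_at and -0.79 to 0.46 for 1422843_at.

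**Figure D4:**
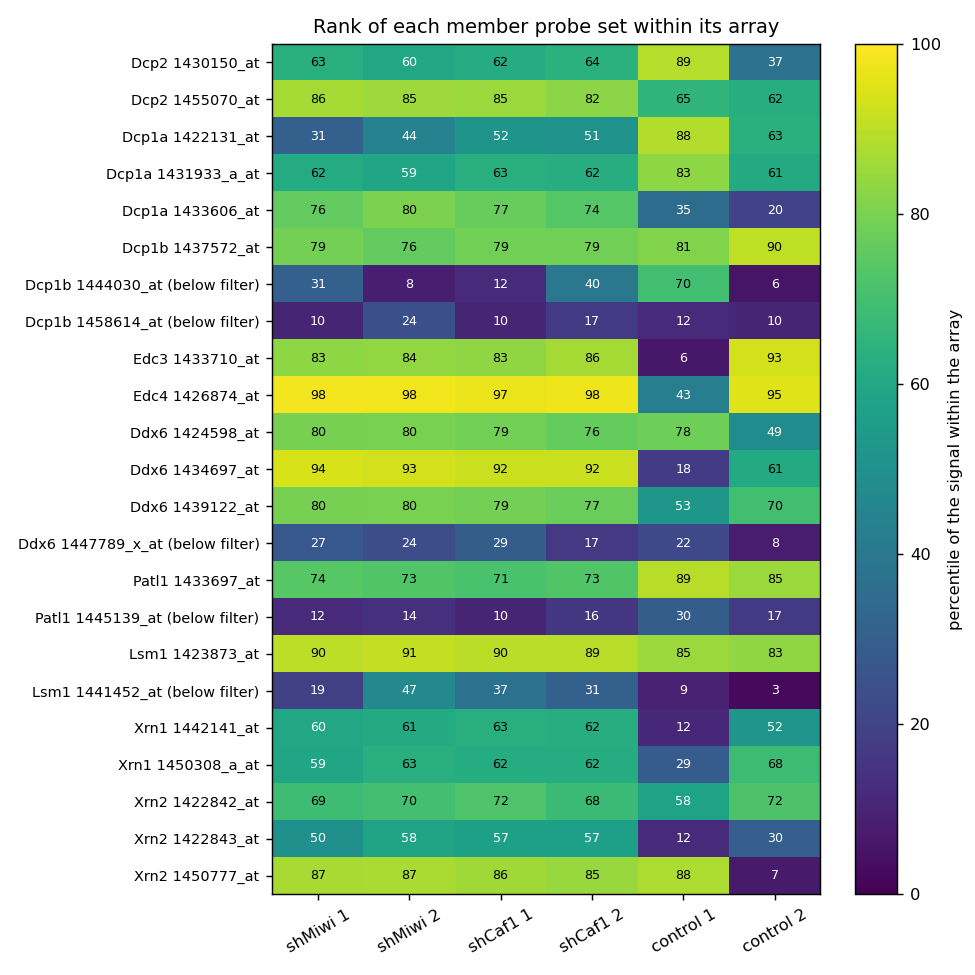
Percentile of the signal of all 23 member probe sets among the probe sets of the same array, with the shMiwi arrays on the left, then shCaf1 and control. Ddx6 1434697_at lies between 91.9 and 94.1 on the shRNA arrays, against 17.6 on control 1 and 61.1 on control 2, while Lsm1 1423873_at lies at 85.0 and 83.2 on the controls.

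The scale of the hybridization controls moved all members upward. Against control, all 18 tested members were higher on it in both shRNA groups, by 0.91 to 7.08 in shMiwi and by 1.40 to 6.53 in shCaf1, where 90.4% and 87.6% of all tested probe sets were called higher. The medians over all tested probe sets were then 3.58 and 3.15, and those over the members 4.09 and 3.74. The constant of 16 is added after that scaling, which brings many control values close to it, so these differences are understated. Between the shRNA groups the same scale gave 9 of 18 members higher in shMiwi and 0 lower (limma, adjusted p under 0.05), where 25.5% of all tested probe sets were higher and 0.955% lower. Its median over all tested probe sets was 0.38, and over the members 0.45. The 9 were the 3 Ddx6 probe sets, with 0.74 for 1434697_at (adjusted p = 0.00574), and 1 each of Dcp1a, Dcp2, Edc4, Xrn2, Patl1 and Lsm1.

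Genes that work with these factors were counted with 1 probe set each. Among them were the other LSM proteins, P-body proteins, cap-binding proteins, further decapping enzymes and AU-rich element binding proteins. Of 31 listed, all but Lsm5 had a probe set of their own, and all 30 were tested. Between the shRNA groups 2 of 30 were higher in shMiwi and 0 lower, beside the 7.33% called in either direction over all probe sets. On the hybridization control scale 8 were higher and 0 lower, where 25.5% and 0.955% of all tested probe sets were. Zfp36l2, which binds AU-rich elements and recruits deadenylases, read 896 and 1033 in shMiwi against 503 and 524 in shCaf1. It rose by 0.89 (SE 0.15, adjusted p = 0.015). Lsm8, the subunit that replaces Lsm1 in the nuclear LSM ring, read 2247 and 2322 in shMiwi against 1627 and 1307 in shCaf1, and rose by 0.64 (SE 0.14, adjusted p = 0.0335). Without shCaf1 replicate 2 neither passed, and without shCaf1 replicate 1 Zfp36l2 did not. Without an intensity trend there were 0 calls (adjusted p = 0.143 and 0.171). Against control, 6 of 30 partners were higher and 4 lower in shMiwi, and 5 higher and 4 lower in shCaf1. These are 10 and 9 of 30, where 43.2% and 41.5% of all tested probe sets were called. The other fits for these partners were chosen after seeing the data. In them the counts were 0 without either array of the shRNA group compared, 4 and 3 without either array of the other, 20 and 22 without control 1, and 24 and 27 without control 2. Over all tested probe sets the shares called in those fits were the ones given above for the members. With median centring the counts were 16 and 15 (46.9% and 44% of all tested). On the hybridization control scale 30 and 29 were higher and 0 lower, where 90.4% and 87.6% of all tested were higher.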

How the data were processed

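RNA was converted to biotinylated cRNA with a 3' IVT kit, per the labels' protocols. The deposited file gives, for each probe set and array, a signal intensity on a linear scale. MAS5 is named in the submitters' processing notes, and its version, the detection calls and a genome build are not given in the sources used here. The authors' deposited intensities have a 2% trimmed mean of 500 on every array. Titles of the samples gave groups and replicate numbers.

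The values were analysed as log2(signal + 16), which understates changes at low signal. Without the 64 Affymetrix controls, 27022 probe sets had a mean log2 over all arrays above the 40th percentile and were tested. Genes were named from the platform annotation. Its gene identifiers were found in the mouse RefSeq table (GRCm38.p6) for 99.4% of the 34958 probe sets that name 1 gene, with 0 member symbols changed. The fits used limma 3.58.1 in R 4.3.3, with lmFit, eBayes with an intensity trend, and Benjamini-Hochberg adjustment over all tested probe sets. For shMiwi against shCaf1 the 4 shRNA arrays were fitted (2 residual degrees of freedom). For the comparisons with control, all 6 arrays entered 1 model of 3 group means (3 residual degrees of freedom). There the groups share 1 estimate of spread, although the control arrays varied more. The fits were tested on simulated data in which all arrays, controls included, had the same spread, set from the shCaf1 replicates. The simulation therefore does not cover the wider spread between the real control arrays. A second scale divided each array by the geometric mean of its 18 hybridization controls (from the bioB, bioC, bioD and cre transcripts). Percentiles are ranks among the probe sets of an array other than Affymetrix controls. All member probe sets are reported. The partner genes, each by its probe set with the highest mean, are named where called between the shRNA groups, up to 3 in each direction. Members and lists were chosen with earlier results of these data known, and no list was tested as a set. Other constants, filters, scalings, variance models, a replicate block and fits without each array in turn were also run. For the partner genes these alternatives were chosen after seeing the data.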

Additional observations from a re-analysis of the deposited data

How the results depend on the processing

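Between shMiwi and shCaf1, the count of 0 called members was unchanged with an added constant of 1 or 64, no filter, a filter at the 60th percentile, quantile normalization, median centring, no intensity trend and all 6 arrays in the fit. It was 9 on the hybridization control scale, 1 with the replicate block (Ddx6 1434697_at, adjusted p = 0.0338) and between 0 and 1 when an array was left out (Dcp1a 1433606_at without shMiwi replicate 1). Over all tested probe sets, calls ranged from 0 (all 6 arrays) and 15 (no intensity trend) through 568 (no filter) to 5458 (replicate block) and 7145 (hybridization scale), against 1981. Against control, with the share of all tested probe sets called in the same fit in brackets, the count of called members in shMiwi was 5 (43.2%). It was 9 with median centring (46.9%), of which 8 were higher, 18 on the hybridization scale (90.5%), 3 with the replicate block (38.5%), 2 with the 4 arrays of both groups alone (24.5%), and between 0 (0%) and 14 (79.7%) when an array was left out. In shCaf1 it was 4 (41.5%), 8 with median centring (44%), all higher, 18 on the hybridization scale (87.6%), 1 with the 4 arrays alone (22%), and between 0 (0%) and 15 (83.9%) when an array was left out. The hybridization scale turned the sign of 7 probe sets against control. The values for shMiwi and shCaf1 were 0.91 and 1.40 for Dcp1a 1422131_at, 2.58 and 2.43 for Dcp1a 1431933_a_at, 3.69 and 3.35 for Dcp1b 1437572_at, 2.88 and 2.65 for Dcp2 1430150_at, 2.88 and 2.57 for Xrn1 1450308_a_at, 3.57 and 3.18 for Xrn2 1422842_at, and 3.41 and 2.80 for Patl1 1433697_at. Median centring turned Patl1 to 0.306 and 0.068. It also turned Dcp1b 1437572_at, Dcp2 1430150_at, Xrn1 1450308_a_at and Xrn2 1422842_at in both groups and Dcp1a 1431933_a_at in shCaf1, and quantile normalization turned the Xrn1 and Xrn2 probe sets, with no call among these. When an array was left out, Edc3 ranged from -1.11 (without control 1) to 4.31 (without control 2) in shMiwi, and from -0.98 to 4.44 in shCaf1. Likewise, Ddx6 1424598_at in shCaf1 ranged from -0.56 (without control 2) to 1.30 (without control 1). With median centring it was 1.93 (adjusted p = 0.0378). The call of Dcp1a 1422131_at was lost with quantile normalization in both groups (adjusted p = 0.0582 and 0.13) and with median centring in shCaf1 (adjusted p = 0.137). The call of Ddx6 1434697_at against control held under every scaling, filter and constant run, and with the replicate block. For shMiwi against control the replicate block ended the calls of Dcp2 1455070_at and Patl1 1433697_at (adjusted p = 0.0502 and 0.0665). It gave 4 called members for shCaf1 against control, as without it. Deviations of same-numbered arrays correlated at r = 0.181 for shMiwi with shCaf1, 0.004 for shMiwi with control and 0.061 for shCaf1 with control, and no label says that a number marks a shared day or animal. The cause of these changes was not tested.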
